A study of Mus musculus with 16 samples.

Results

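The genes described here are 10 members of the circadian clock and its immediate output, taken by name: Arntl, Npas2, Cry1, Per1, Per2, Per3, Nr1d1, Nr1d2, Dbp and Ciart. All 10 were present in the glomerular table of 24722 genes, where Arntl is listed as Bmal1, and in the cortex table of 34264 genes, and all 10 passed the filter on low counts in every comparison. RNA had been sequenced from glomeruli after isolation (the tufts that filter the blood) and from renal cortex, which is mostly tubule. The diabetic groups were wild-type mice in which a high-fat diet together with streptozotocin, which kills the beta cells of the pancreas, had induced diabetes (HFD/STZ), and the control groups were wild-type mice whose treatment is given only as control. All mice were 24 weeks old and all libraries were of batch 1, with 4 libraries in each of diabetic glomeruli, control glomeruli, diabetic cortex and control cortex. Diet, toxin and the diabetic state are not separated by these groups. The sources used here do not give the time of day at which tissue was taken, the light schedule or the feeding state. Clock transcripts change with the hour, so every difference below can hold a difference in collection time, whose part was not tested.

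In mammals the clock runs as a loop of transcription and repression. Arntl (BMAL1) pairs with CLOCK or its relative Npas2 and switches on genes that carry an E-box, among them Per1, Per2, Per3, Cry1, Nr1d1, Nr1d2, Dbp and Ciart. The period and cryptochrome proteins then repress that pair, while the nuclear receptors REV-ERB alpha (Nr1d1) and REV-ERB beta (Nr1d2) repress Arntl and Npas2 through sites that they share with the ROR receptors. Dbp is an activator that binds D-boxes and carries the rhythm to other genes, and Ciart (CHRONO) is a further repressor of BMAL1. In rodent tissues Arntl, Npas2 and Cry1 therefore peak at other hours than Dbp, Nr1d1 and the period genes. In the kidney the clock is known for timing salt and water transport in the tubule.

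Total counts per library were 36339294 to 40696477 in diabetic glomeruli, 40001932 to 41876031 in control glomeruli, 60628981 to 72352656 in diabetic cortex and 57473100 to 69947387 in control cortex. Diabetic glomerular libraries 1 and 4 had a chi-square of their counts per gene of 6.69, against 66.2 to 97.9 for other pairs of their group, and control glomerular libraries 3 and 4 had 2.76, against 45.7 to 84.4. Both pairs were therefore added up, each as 1 sample, which left 3 against 3 glomerular samples, called diabetic 1+4, 2 and 3 and control 1, 2 and 3+4. Control cortex library 4 stood apart from the other control cortex libraries, with a chi-square per gene of 77.7 to 96.2 against each of them and 18.4 to 28.4 among the other 3. Whether the libraries are of different animals is not stated in the labels. A p-value below therefore reflects the spread among these samples alone, and that spread may be technical. Control glomeruli set against control cortex had higher levels for 10 of 10 podocyte markers and lower levels for 12 of 12 proximal tubule markers, as the labels have it (edgeR, adjusted p under 0.05). The glomerular samples differed in tubule content: the 12 proximal tubule markers summed to 983, 78.5 and 473 CPM (counts scaled to a common library size) in diabetic samples 1+4, 2 and 3, against 52.0 to 61.7 CPM in the control samples. The 12 distal nephron and collecting duct markers summed to 1838, 78.5 and 832.5 CPM in the same diabetic samples, against 57.0 to 79.2 CPM in the control samples, and no marker of either list was at 0 in any sample.

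The members with a sequence at hand differ in the letters of clock elements next to their starts. The 4 stretches below are printed because they hold letters of the 3 kinds of element that factors of the loop can bind. They are RefSeq sequence of build GRCm38.p6, 5′ to 3′ on the strand of the gene, with 1 kind of element in capitals in each: E-boxes in Ciart and Per1, D-boxes in Per3 and the receptor site in Arntl. Ciart (chr3:95882229-95882478, minus strand) carries 3 E-boxes, and Per1 (chr11:69098699-69098948, plus strand) carries 1. Per3 (chr4:151044666-151044915, minus strand) carries 2 D-boxes, the element bound by Dbp. Arntl (chr7:113207530-113207559, plus strand, just after the start) carries the core letters of the site shared by the REV-ERB and ROR receptors.
Ciart: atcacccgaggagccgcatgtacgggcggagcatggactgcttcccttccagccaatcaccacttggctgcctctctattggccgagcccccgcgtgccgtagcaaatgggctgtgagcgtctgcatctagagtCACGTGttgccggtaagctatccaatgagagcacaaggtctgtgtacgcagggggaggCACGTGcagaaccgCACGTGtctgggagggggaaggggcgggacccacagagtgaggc
Per1: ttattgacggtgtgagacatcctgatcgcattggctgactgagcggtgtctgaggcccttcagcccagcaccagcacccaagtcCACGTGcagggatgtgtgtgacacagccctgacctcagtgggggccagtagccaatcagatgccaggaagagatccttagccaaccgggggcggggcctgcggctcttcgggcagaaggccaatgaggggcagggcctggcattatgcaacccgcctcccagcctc
Per3: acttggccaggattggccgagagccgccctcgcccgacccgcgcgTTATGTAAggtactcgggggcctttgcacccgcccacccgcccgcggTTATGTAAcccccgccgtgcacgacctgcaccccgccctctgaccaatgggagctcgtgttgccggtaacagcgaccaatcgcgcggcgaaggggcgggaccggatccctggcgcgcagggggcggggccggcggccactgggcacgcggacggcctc
Arntl: aaggcagaaagtAGGTCAgggacggaggtg

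Windows of RefSeq sequence from 250 bases before to 50 after a start were at hand for 9 of the 10 members, all but Per2, with 11 windows in all. The letters CACGTG (E-box) were found in windows of Ciart, at -116, -58 and -44 from the start, of Cry1 at -60 and of Per1 at -166, and in 7.15% of all 32851 windows. D-boxes, searched as TTATGTAA and TTACGTAA on both strands, were found in the window of Per3, at -205 and -158, and in 1.06% of all windows. The letters AGGTCA on either strand were found in windows of Arntl, Nr1d2 and Per1 and in 16.3% of all windows (in Per1 as TGACCT at -137, left in lower case above), and the cyclic AMP element TGACGTCA in no member's window and 1.79% of all. None of the matches in the members overlapped. These are matches of letters in a short window and were not measured as binding.

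Per length, the REV-ERB genes and Dbp were the most abundant members, and Arntl and Npas2 stood at the low end. In control cortex, on the authors' FPKM scale, Nr1d1 stood at 24.0 ± 10.2, Nr1d2 at 22.1 ± 4.97, Dbp at 16.6 ± 6.10, Per1 at 9.11 ± 2.88 and Per2 at 6.54 ± 1.41 (SD, n = 4). Per3 followed at 3.33 ± 0.378, Ciart at 2.26 ± 1.06, Cry1 at 1.06 ± 0.434, Arntl at 0.955 ± 0.237 and Npas2 at 0.954 ± 0.382. In that order the ranges of neighbouring genes overlapped, except those of Per2 and Per3. In control glomeruli the order began Nr1d1 27.3 ± 2.95, Nr1d2 17.5 ± 1.51, Dbp 16.5 ± 2.20, Per1 5.38 ± 0.464 and Cry1 4.21 ± 0.894 FPKM (SD, n = 3). It ended with Per2 at 3.58 ± 0.204, Per3 at 3.05 ± 0.437, Ciart at 1.28 ± 0.138, Arntl at 1.04 ± 0.0365 and Npas2 at 0.0517 ± 0.0258 FPKM. There the ranges of neighbours were apart between Nr1d1 and Nr1d2, between Dbp and Per1, and at each step from Per3 down. The place of Arntl in glomeruli rests on the length implied by its counts and FPKM, 19267 bases there and 8148 in the cortex table. On CPM, not scaled by length, Arntl had 20.9 to 22.0 in control glomeruli. By the same measure Per2 had 22.1 to 24.7 and Ciart 2.6 to 3.4 CPM.

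**Figure D1:**
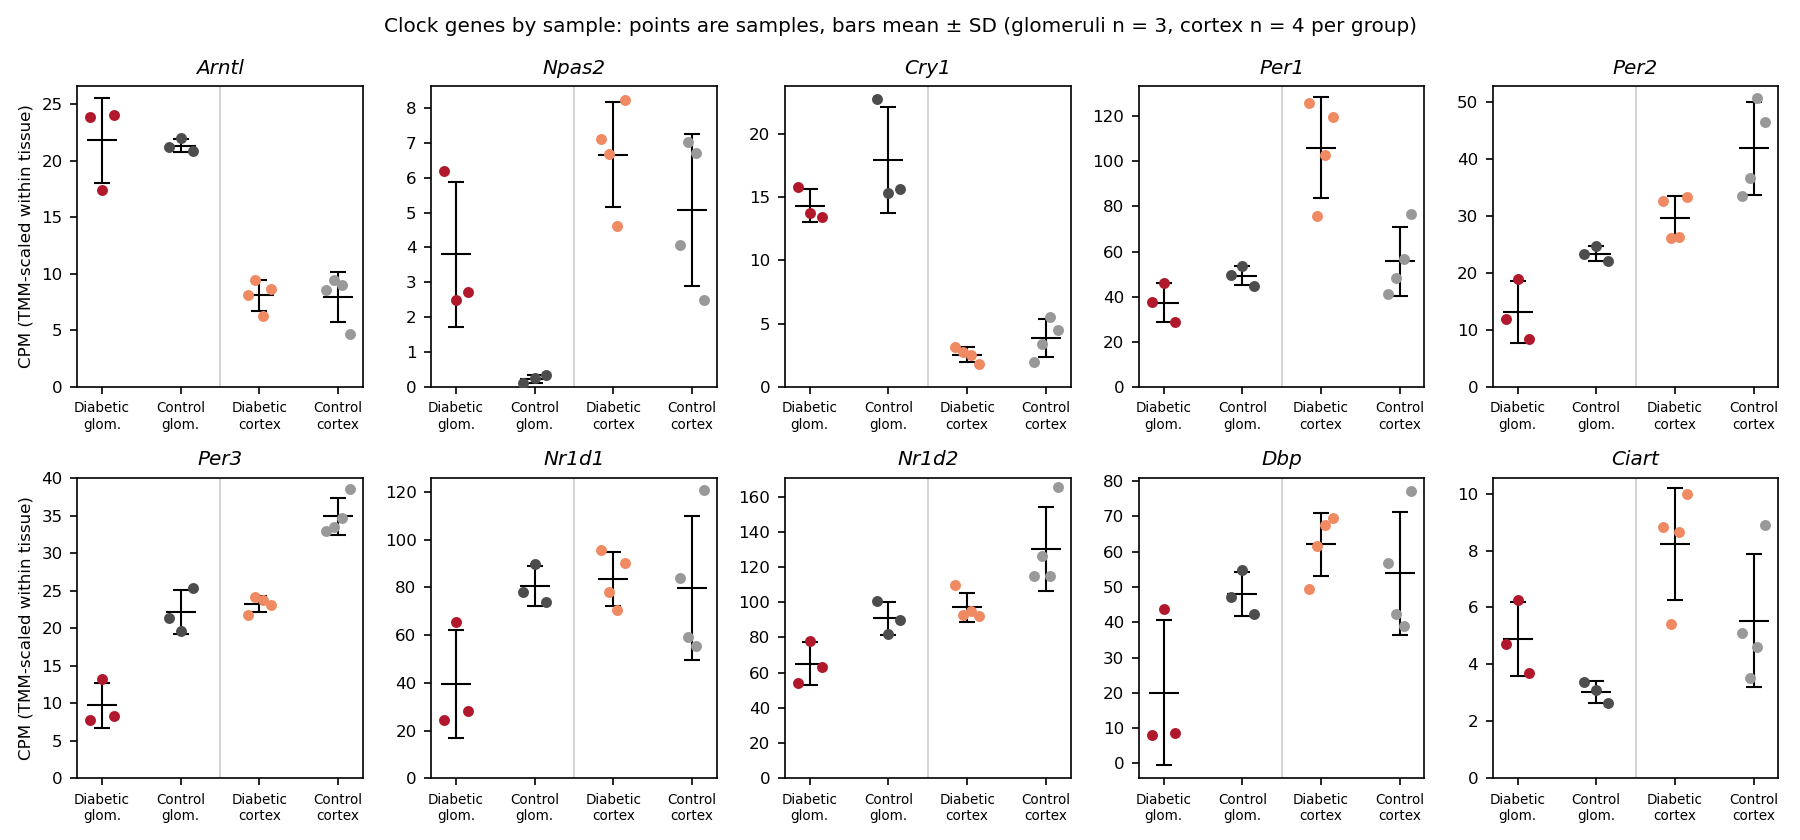
Level of each clock gene in each sample, as CPM scaled within a tissue by TMM (y axis, from 0 except for Dbp, whose lower error bar passes below 0), in diabetic and control glomeruli and diabetic and control cortex; points are samples and bars are the mean ± SD (n = 3 per glomerular group, n = 4 per cortex group). Per3 is lower in every diabetic sample than in any control sample of its tissue, and Npas2 is at 0.107 to 0.331 CPM in control glomeruli.

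In diabetic cortex the 3 period genes did not move together: Per1 was higher, while Per2 and Per3 were lower, as was Nr1d2. Of the 10 members 1 was called higher and 3 lower in diabetic against control cortex (edgeR quasi-likelihood test, Benjamini-Hochberg adjusted p under 0.05), and 20.1% of all 19228 genes tested were called. The median log2 fold change was 0.05 over the members and -0.004 over all genes. Since a cortex sample mixes cell types, fewer cells of a type and less RNA per cell cannot be told apart here or in the glomeruli.

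Per3, a period gene whose loss leaves a running clock in mice, had 21.8, 24.2, 23.8 and 23.1 CPM in diabetic cortex, against 33.0, 33.5, 34.8 and 38.5 CPM in control cortex. The 4 diabetic libraries lay close together and below all control libraries. The difference was -0.59 ± 0.07 (log2 fold change ± SE, edgeR adjusted p = 0.000812), and it was called in all 15 alternative settings that were run. Per1, a period gene that is also switched on rapidly by hormones and by cyclic AMP signals, had 126, 75.8, 103 and 119.6 CPM in diabetic cortex, against 41.4, 48.3, 56.8 and 76.6 CPM in control cortex. Diabetic library 2 and control library 4 met at about the same level, and the other libraries did not overlap. Per1 was higher by a log2 fold change of 0.93 ± 0.22 (edgeR adjusted p = 0.0200). That call was lost without control library 2 (0.86, adjusted p = 0.0560) or diabetic library 4 (0.86, adjusted p = 0.0562).

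Per2, a core period repressor, had 32.7, 26.1, 26.3 and 33.2 CPM in diabetic cortex, against 33.4, 36.7, 50.6 and 46.5 CPM in control cortex. Every diabetic library lay below every control library, the nearest pair within 1 CPM of each other. The log2 fold change was -0.50 ± 0.14 (edgeR adjusted p = 0.0331). Nr1d2, the REV-ERB beta gene, had 109.5, 92.7, 94.8 and 92.0 CPM in diabetic cortex, against 115, 126, 115 and 165 CPM in control cortex. Again no diabetic library reached the control range, and the log2 fold change was -0.42 ± 0.12 (edgeR adjusted p = 0.0307). Both calls were lost when single libraries were left out. Per2 was no longer called without control library 3 (-0.40, adjusted p = 0.0790) or 4 (-0.45, 0.0719) or without diabetic library 2 (-0.44, 0.0946) or 3 (-0.45, 0.0958). Nr1d2 was no longer called without control library 2 (-0.44, adjusted p = 0.0556) or without diabetic library 2 (-0.40, 0.0859), 3 (-0.41, 0.0830) or 4 (-0.40, 0.0851).

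Nr1d1, the REV-ERB alpha gene, had 95.7, 77.9, 70.7 and 90.2 CPM in diabetic cortex, against 84.0, 59.0, 55.3 and 121 CPM in control cortex, with a log2 fold change of 0.07 ± 0.25 (edgeR adjusted p = 0.885). Dbp, the D-box activator, had 49.5, 61.7, 67.6 and 69.4 CPM in diabetic cortex, against 56.9, 42.4, 38.9 and 77.2 CPM in control cortex, with 0.20 ± 0.22 (adjusted p = 0.561). For both genes the control range took in the whole diabetic range. Ciart had 8.81, 5.41, 8.66 and 10.0 CPM in diabetic cortex, against 5.11, 3.53, 4.61 and 8.89 CPM in control cortex. Its log2 fold change was 0.57 ± 0.28 (edgeR adjusted p = 0.198), and 0.89 (adjusted p = 0.0136) without control library 4.

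The positive arm was not called in the cortex. Arntl had 8.17, 9.42, 6.23 and 8.63 CPM in diabetic cortex, against 8.59, 9.47, 9.02 and 4.69 CPM in control cortex, a log2 fold change of 0.03 ± 0.22 (edgeR adjusted p = 0.939). Npas2, the partner that can stand in for CLOCK, had 7.11, 6.69, 4.62 and 8.22 CPM in diabetic cortex, against 4.06, 7.01, 6.72 and 2.50 CPM in control cortex, a log2 fold change of 0.39 ± 0.31 (adjusted p = 0.423). Cry1, the cryptochrome repressor, had 3.17, 2.72, 2.49 and 1.78 CPM in diabetic cortex, against 1.99, 3.42, 5.55 and 4.52 CPM in control cortex, a log2 fold change of -0.61 ± 0.30 (adjusted p = 0.191). In all 3 genes the groups overlapped.

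Control cortex library 4 had the lowest Arntl and Npas2 of its group and the highest Dbp, Nr1d1, Nr1d2, Ciart, Per1 and Per3. Set against the mean of the control cortex libraries on the log2 scale, it stood at -0.76 for Arntl and -1.02 for Npas2, and at 0.52 for Dbp, 0.60 for Nr1d1, 0.34 for Nr1d2 and 0.68 for Ciart. This was the library with the largest chi-square to the rest of its group. Over the 8 cortex libraries, with each group's mean taken off, the genes whose log2 CPM was most like that of Arntl among 13103 genes were Clcn7 (Pearson r 0.995, Spearman rho 0.976), Rac3 (0.995 and 1) and Rmdn3 (0.990 and 0.952). Those most like Dbp were Vamp5 (Pearson r 0.993, Spearman rho 0.905), Garem1 (0.991 and 0.952) and Cdc14a (0.988 and 0.905). Without the 2 libraries farthest from the median, r was 0.848 to 0.981 for the Arntl genes and 0.978 to 0.984 for the Dbp genes. These genes were the top of a search over all genes in 8 libraries, so the values describe these libraries and carry no test.

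**Figure D2:**
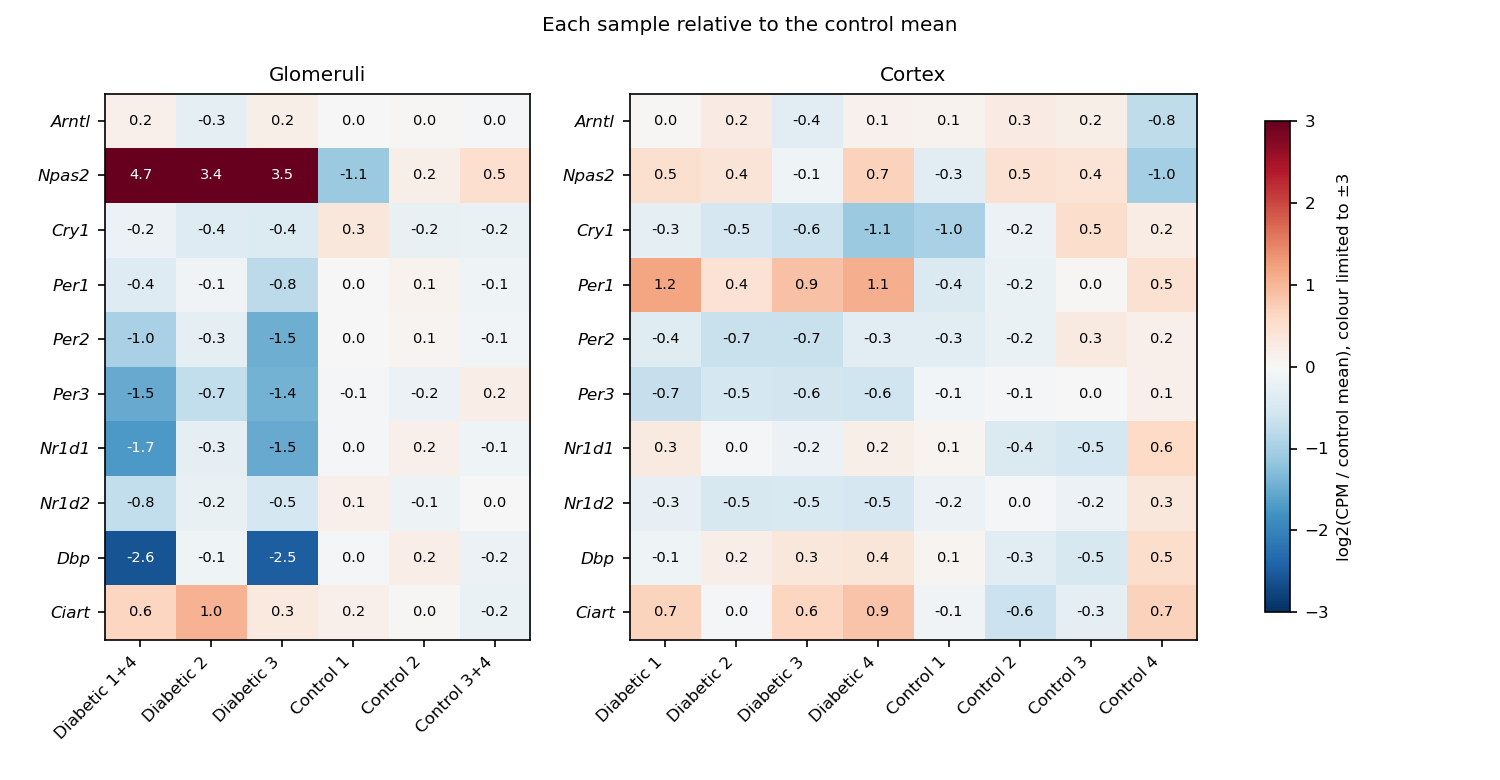
Each sample's level of each clock gene as the log2 of its CPM over the mean CPM of the control samples of its tissue (colour, limited to ±3, with the value written in each cell), for glomerular samples on the left and cortex libraries on the right, diabetic before control in each panel. Diabetic glomerular samples 1+4 and 3 are at -2.60 and -2.48 for Dbp and sample 2 at -0.14, while control cortex library 4 is low for Arntl and Npas2 and high for Dbp and Nr1d1.

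Per1 was higher in diabetic cortex together with the immediate early genes, the transcripts that rise within minutes of a stimulus to the cell or of handling of the tissue. Of 13 such genes 12 were called higher in diabetic cortex, with a median log2 fold change of 2.28 over the 13. Nr4a1, a nuclear receptor of this class, averaged 75.4 ± 25.9 CPM in diabetic cortex and 9.32 ± 1.68 CPM in control cortex (SD, n = 4 each), a log2 fold change of 3.02 ± 0.29 (edgeR adjusted p = 0.000840). Ier3, Btg2 and Fosb were higher by 1.30 ± 0.15 (adjusted p = 0.000911), 2.66 ± 0.29 (adjusted p = 0.00117) and 3.31 ± 0.55 (adjusted p = 0.00337) on the log2 scale. The count of these genes called higher was 11 or 12 with any 1 library left out. The 13 genes summed to 569, 651, 1085 and 742 CPM in diabetic cortex libraries 1 to 4, against 172, 153, 168.5 and 235 CPM in control cortex. The 4 diabetic libraries were all above the control libraries, but diabetic library 1, with the highest Per1, had the lowest sum of its group. Of 11 genes known to respond to glucocorticoid hormone, a signal that also acts on Per1, 3 were called higher in diabetic cortex and 8 were not called. This count is not far from the 20.1% called among all genes tested, and the log2 fold changes of the 11 ran from -0.51 to 1.81. The genes called were Cebpd (1.81 ± 0.20, edgeR adjusted p = 0.000812), Ddit4 (1.53 ± 0.25, adjusted p = 0.00540) and Dusp1 (1.11 ± 0.23, adjusted p = 0.0117). Without control library 4, 5 of the 11 were called higher, and 4715 of all 19533 genes tested were called. The part of either signal in the level of Per1 was not tested. Among cell type markers, 8 of 9 myeloid genes were called higher in diabetic cortex and 6 of 12 proximal tubule genes lower. The 9 myeloid genes summed to 539 to 828 CPM in diabetic cortex, against 221 to 386 CPM in control cortex, and their part in the clock genes' levels was not tested.

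In diabetic glomeruli, where Per1 was not called, 2 of the 13 immediate early genes were called, against 37.5% of all genes tested. The diabetic effects in the tissues started from unlike levels of these genes. On counts 12 of the 13 were called higher in control glomeruli than in control cortex, with a median log2 fold change of 3.18. In that contrast 78.4% of all genes tested were called. The 13 immediate early genes summed to 1171, 1610 and 1176 CPM in diabetic samples 1+4, 2 and 3, against 1597, 1874 and 1392 CPM in control samples. The genes called lower were Zfp36 (-0.73 ± 0.14, edgeR adjusted p = 0.00920) and Egr1 (-0.79 ± 0.17, adjusted p = 0.0115), and the count of lower calls was 5 without diabetic sample 2 and 4 without diabetic sample 3. Of the 11 glucocorticoid-responsive genes 3 were called higher and 2 lower there. Ddit4, an inhibitor of mTOR signalling, was higher (2.05 ± 0.17, edgeR adjusted p = 0.000644), as was Errfi1 (1.14 ± 0.16, adjusted p = 0.00280), while Sgk1 (-0.77 ± 0.19, adjusted p = 0.0194) and Dusp1 (-0.67 ± 0.18, adjusted p = 0.0286) were lower. Without control sample 1 or diabetic sample 1+4 the counts were 2 higher and 0 lower, and 1 was lower without control sample 2, diabetic sample 2 or diabetic sample 3. Without control sample 3+4 they were 2 higher and 3 lower.

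**Figure D3:**
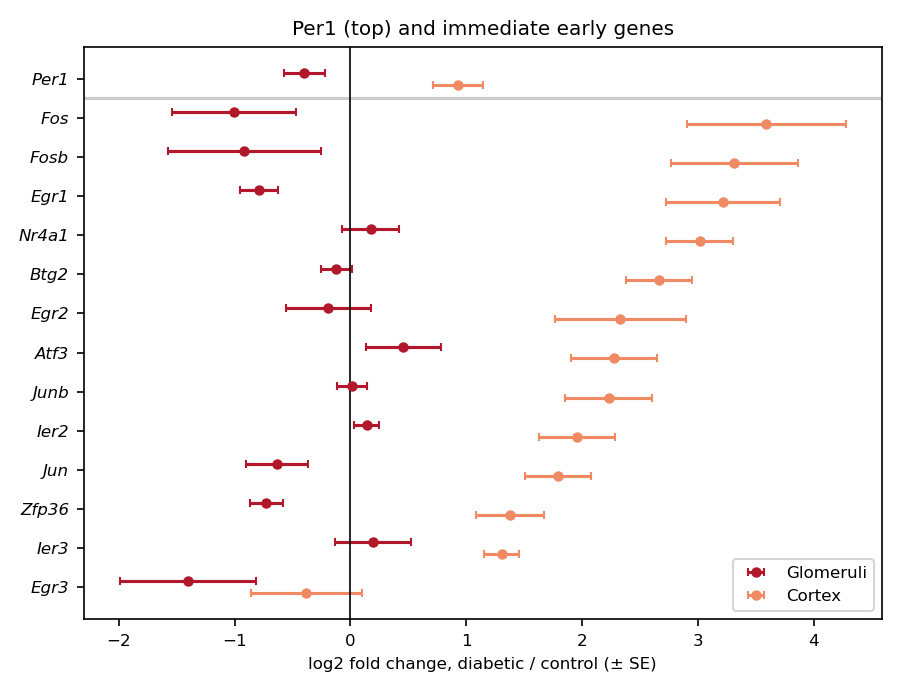
Log2 fold change, diabetic over control, of Per1 (top) and 13 immediate early genes in glomeruli and in cortex (x axis; points are edgeR estimates and bars ± SE; 3 against 3 glomerular samples, 4 against 4 cortex libraries). In cortex Per1 and 12 of the 13 genes lie to the right of 0, and in glomeruli Per1 lies at -0.40.

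In diabetic glomeruli Npas2 was higher than in control glomeruli by more than any other member, Per3 and Nr1d2 were lower, and the rest did not pass the test. Thus 1 of the 10 members was called higher and 2 lower in diabetic against control glomeruli (edgeR, adjusted p under 0.05), where 37.5% of all 15238 genes tested were called. The median log2 fold change was -0.44 over the members and 0.01 over all genes. In this tissue the count depended on single samples and on the settings of the test, as given at the end. Diabetic sample 2 was near the control level for several members, and without it 1 member was called higher and 6 lower. In that fit 4365 of all 15658 genes tested were called, and only diabetic samples 1+4 and 3 remained. Sample 2 is set apart here by the members' own levels. Adjusted p-values without it, here and below, therefore show its weight in the result and are no test of the members. Of markers of other glomerular cells, 6 of 6 smooth muscle, 3 of 6 mesangial and 4 of 10 podocyte markers were called lower in diabetic glomeruli, the podocyte share being near that of all genes. Of 8 endothelial markers edgeR called 0 and DESeq2 0, and 0 had a p under 0.05 before adjustment, with a median log2 fold change of -0.04. The smooth muscle markers summed to 3447 to 6273 CPM in diabetic glomeruli, against 17520 to 19960 CPM in control glomeruli. The mesangial markers summed to 499.9 to 541 CPM in diabetic glomeruli, against 1101 to 1266 CPM in control glomeruli, and the podocyte markers to 2545 to 4657 CPM, against 5225 to 6520 CPM. The part of these cells in the clock genes' levels was not tested.

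Npas2 had 6.19, 2.49 and 2.72 CPM in diabetic samples 1+4, 2 and 3, against 0.107, 0.264 and 0.331 CPM in control samples 1, 2 and 3+4. In whole reads these were 243, 109, 114 and 263 in diabetic libraries 1 to 4, against 4, 10, 20 and 6 in control libraries 1 to 4. Every diabetic sample was several times above every control sample, and the log2 fold change was 3.96 ± 0.56 (edgeR adjusted p = 0.00282). It was called in all 15 alternative settings, in 1 of which sample 2 was the single diabetic sample and the spread came from the control samples alone. The value there was 3.36. Npas2 is also expressed in the cortex, and so are the tubule markers. On a common scale the Npas2 level of diabetic glomerular samples 1+4, 2 and 3 was 77.0%, 29.7% and 33.3% of the diabetic cortex mean, and that of control glomerular samples 1.72% to 5.40% of the control cortex mean. The same samples held 5.89%, 0.452% and 2.79% of the diabetic cortex level of summed proximal tubule markers, and 26.1%, 1.07% and 11.7% of that of distal nephron and collecting duct markers. In control glomeruli these shares were 0.233% to 0.264% and 0.651% to 0.927% of control cortex. All these shares are on CPM, which takes no account of length, and the length implied for Npas2 differed between the tables (ratio 0.82). Per length, Npas2 was at 1.58, 0.629 and 0.664 FPKM in diabetic samples 1+4, 2 and 3, against 0.933 to 1.58 FPKM in diabetic cortex.

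Per3 had 7.77, 13.2 and 8.29 CPM in diabetic samples 1+4, 2 and 3, against 21.4, 19.7 and 25.4 CPM in control glomeruli. All 3 diabetic samples were lower than all control samples, sample 2 the least so, with a log2 fold change of -1.19 ± 0.23 (edgeR adjusted p = 0.00841). Sample 2 by itself, which gives no spread of its own, stood at -0.73 against the controls. Per2 had 12.0, 19.0 and 8.44 CPM in diabetic glomeruli, against 23.4, 24.7 and 22.1 CPM in control glomeruli, without overlap. Its log2 fold change of -0.83 ± 0.28 did not pass (edgeR adjusted p = 0.0550), and without diabetic sample 2 it was -1.18 (adjusted p = 0.00828). Per1 had 37.7, 45.9 and 28.5 CPM in diabetic glomeruli, against 49.5, 53.4 and 44.8 CPM in control glomeruli. Sample 2 overlapped the controls, and the log2 fold change was -0.40 ± 0.17 (adjusted p = 0.118), or -0.55 (adjusted p = 0.0436) without it.

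Nr1d2 had 54.0, 78.2 and 63.0 CPM in diabetic glomeruli, against 101, 82.0 and 89.8 CPM in control glomeruli. The groups did not overlap, and the log2 fold change was -0.48 ± 0.15 (edgeR adjusted p = 0.0453). That call was lost without any of control sample 1 (-0.41, adjusted p = 0.125), control sample 2 (-0.56, 0.0524), control sample 3+4 (-0.50, 0.0991), diabetic sample 1+4 (-0.33, 0.127) or diabetic sample 3 (-0.44, 0.117). Without diabetic sample 2 it was -0.62 (adjusted p = 0.0187). Nr1d1 had 24.5, 65.7 and 28.3 CPM in diabetic glomeruli, against 78.1, 89.9 and 73.9 CPM in control glomeruli, with a log2 fold change of -1.03 ± 0.37 (edgeR adjusted p = 0.0679). Samples 1+4 and 3 were far below the control range and sample 2 just under it. Without sample 2 the difference was -1.60 (adjusted p = 0.00251), and sample 2 by itself, with no spread of its own, stood at -0.27.

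Dbp showed the widest split among diabetic glomeruli, with 7.93, 43.7 and 8.60 CPM in samples 1+4, 2 and 3, against 47.2, 54.8 and 42.2 CPM in control samples. Sample 2 lay inside the control range, and the other diabetic samples had 16.5% and 17.9% of the control mean. The log2 fold change over all 3 was -1.26 ± 0.66 (edgeR adjusted p = 0.176), and -2.52 (adjusted p = 0.00225) without sample 2. Samples 1+4 and 3, in which Dbp, Nr1d1 and Per2 were low, were also the samples in which the tubule markers were high, and the part of that tubule RNA in their levels was not tested. On the common scale Dbp in diabetic glomerular samples 1+4, 2 and 3 was at 10.6%, 56.0% and 11.3% of the diabetic cortex mean, and in control glomeruli at 64.9% to 80.6% of the control cortex mean. These CPM shares take no account of length, and the implied lengths differed (ratio 0.845). Per length, Dbp was at 3.15, 17.2 and 3.27 FPKM in the same diabetic samples, against 14.9 to 22.0 FPKM in diabetic cortex. Control glomeruli had 14.7 to 18.9 FPKM of Dbp, and control cortex 11.8 to 24.9 FPKM. Ciart went the other way, with 4.71, 6.26 and 3.69 CPM in diabetic glomeruli, against 3.38, 3.10 and 2.63 CPM in control glomeruli. No diabetic sample reached down to the control range, but the log2 fold change of 0.69 ± 0.26 did not pass (edgeR adjusted p = 0.0746). It was 0.88 (adjusted p = 0.0347) without diabetic sample 3.

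Arntl and Cry1 were not called in glomeruli. Arntl had 23.9, 17.5 and 24.1 CPM in diabetic glomeruli, against 21.2, 22.0 and 20.9 CPM in control glomeruli, a log2 fold change of 0.03 ± 0.14 (edgeR adjusted p = 0.881). Here sample 2 was the lowest of all 6 samples. Cry1 had 15.8, 13.7 and 13.4 CPM in diabetic glomeruli, against 22.8, 15.3 and 15.6 CPM in control glomeruli, with overlap and a log2 fold change of -0.32 ± 0.18 (adjusted p = 0.201).

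Exons of 3 members overlap a gene on the opposite strand in the GENCODE M21 annotation: those of Nr1d1 overlap Thra over up to 263 bases, those of Dbp overlap Sphk2 over up to 539 and those of Arntl an antisense transcript over up to 33. The sources used here do not say whether counting used the strand, so reads of these pairs may be mixed. Thra was itself lower in diabetic glomeruli (-0.57 ± 0.14, edgeR adjusted p = 0.0189), and Sphk2 had -0.25 ± 0.09 (adjusted p = 0.0618).

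**Figure D4:**
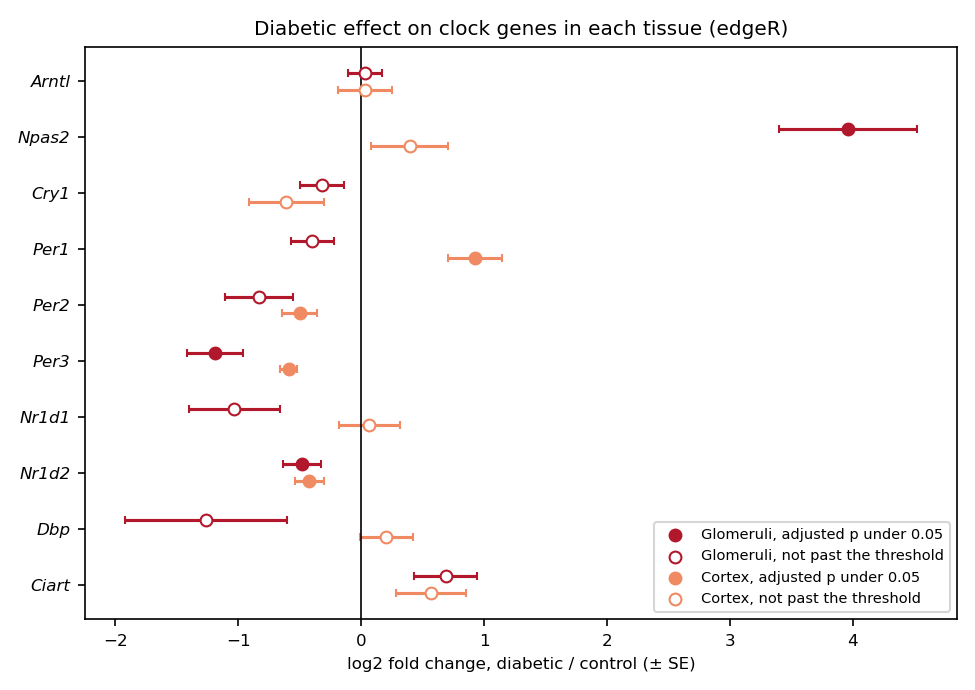
Log2 fold change, diabetic over control, of each clock gene in glomeruli (upper point of each pair) and in cortex (lower point), with ± SE derived from the edgeR test. Filled points passed an adjusted p of 0.05 (3 against 3 glomerular samples, 4 against 4 cortex libraries). Npas2 in glomeruli is at 3.96 and in cortex at 0.39, Per1 is at -0.40 in glomeruli and 0.93 in cortex, and Per3 is below 0 in both.

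The diabetic effect itself differed between the tissues for Npas2, Per1 and Per3. In a model of all 4 groups, 1 member was called higher and 2 lower for the difference of the diabetic effect, glomeruli minus cortex (edgeR, adjusted p under 0.05), and 35.0% of all 16507 genes tested were called. For Npas2 the difference was 3.55 ± 0.65 on the log2 scale (edgeR adjusted p = 0.00109), and it was called in all 20 alternative settings. For Per1, with effects of -0.40 in glomeruli and 0.93 in cortex, it was -1.32 ± 0.31 (edgeR adjusted p = 0.00528). It was called in 19 of 20 alternatives, all but the 1 with glomerular sample 2 as the single diabetic sample, which takes its spread from the other groups (-0.99). For Per3, lower in both tissues, the difference was -0.60 ± 0.21 (edgeR adjusted p = 0.0428), and it was called in 8 of 20 alternatives, which ran from -0.87 to -0.13. Leaving out any 1 of control glomerular samples 1 and 3+4, diabetic glomerular samples 1+4 and 3, control cortex libraries 1 to 3 or diabetic cortex libraries 2 to 4 ended that call (adjusted p 0.0628 to 0.119). Dbp at -1.48 ± 0.68 (adjusted p = 0.110) and Nr1d1 at -1.10 ± 0.46 (adjusted p = 0.0810) were not called. Without diabetic glomerular sample 2 they were -2.73 (adjusted p = 3.77e-05) and -1.67 (adjusted p = 0.00281), and Nr1d1 was -1.37 (adjusted p = 0.0245) without control cortex library 4. Because sample 2 was set apart by these genes' own levels, the values without it are no test of the genes. Arntl, Ciart, Cry1, Nr1d2 and Per2 differed between tissues by -0.33 to 0.29 (adjusted p 0.433 to 0.992).

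Between the tissues of control mice the clearest difference was in Npas2 and Cry1. On counts, 2 members were called higher and 5 lower in control glomeruli against control cortex (edgeR, adjusted p under 0.05), where 78.4% of all genes tested were called. The length implied by a gene's counts and FPKM differed between the tables, for a reason that was not tested. The ratio was 2.36 for Arntl (19267 bases in the glomerular table, 8148 in the cortex table), 1.41 for Per1 (8573 and 6087 bases) and 0.655 for Per3. Levels are therefore set side by side per length, as FPKM, which is normalised separately in each table. Npas2 was at 0.0517 ± 0.0258 FPKM in control glomeruli (n = 3) and 0.954 ± 0.382 FPKM in control cortex (SD, n = 4), and Cry1 at 4.21 ± 0.894 and 1.06 ± 0.434 FPKM in the same groups, both without overlap. Per2 had 0.548 times and Nr1d2 0.792 times the cortex FPKM, without overlap, and both were called lower on counts. Per1 had 0.591 times, without overlap, but was not called on counts (-0.48 ± 0.22, edgeR adjusted p = 0.0580). Ciart, a repressor called lower on counts (-1.17 ± 0.31, edgeR adjusted p = 0.00333), had 0.568 times the cortex FPKM with overlapping samples. Arntl, higher on counts by 1.13 on the log2 scale, and Per3, at -0.95, had 1.09 and 0.918 times the cortex FPKM with overlapping samples. Nr1d1 was at -0.29 on counts and 1.14 times the cortex level per length, with the groups overlapping.

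Other genes of the loop and its outputs showed no common direction. Of 15 further clock genes, 14 were tested in glomeruli, where 3 were called higher and 2 lower in diabetic samples, with a median log2 fold change of -0.14. That is near the share of all genes tested there, of which 37.5% were called. Bhlhe40 (DEC1), a repressor that competes for E-boxes, averaged 444 ± 34.6 CPM in diabetic glomeruli and 172 ± 40.3 CPM in control glomeruli (SD, n = 3 each), a log2 fold change of 1.37 ± 0.17 (edgeR adjusted p = 0.00195). Csnk1e, a kinase of the period proteins, was higher by 0.50 ± 0.09 (adjusted p = 0.00596), and Btrc, part of the ligase that removes them, was lower by a log2 fold change of -0.42 ± 0.09 (adjusted p = 0.00994). In cortex 1 of the 15 was called higher and 2 lower in diabetic libraries, with a median of -0.04. This too is near the share of all genes tested in cortex, of which 20.1% were called. Bhlhe41 (DEC2), a repressor related to Bhlhe40, was the gene called higher (0.72 ± 0.22, edgeR adjusted p = 0.0440). No gene of the 15 was called higher by edgeR without control library 1, 2 or 3 or diabetic library 3 or 4, and 3 were called higher and 3 lower without control library 4. The lower calls were 1 without control library 2 or 3 or diabetic library 2, 3 or 4.

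Among 9 clock output genes 2 were called higher and 2 lower in diabetic glomeruli, and 1 was called higher in diabetic cortex. Of all genes tested 37.5% were called in diabetic glomeruli and 20.1% in diabetic cortex, so these counts do not set the output genes apart. Tef, a D-box activator like Dbp, averaged 61.9 ± 13.2 CPM in diabetic glomeruli and 117 ± 7.71 CPM in control glomeruli (SD, n = 3 each), a log2 fold change of -0.92 ± 0.15 (edgeR adjusted p = 0.00515). Tspan4 was lower too (-1.15 ± 0.12, adjusted p = 0.000990). Noct (nocturnin), a rhythmic phosphatase gene, was higher in both tissues. It averaged 73.8 ± 12.2 CPM in diabetic glomeruli and 47.3 ± 11.0 CPM in control glomeruli (0.64 ± 0.19, adjusted p = 0.0396), and 127 ± 27.5 CPM in diabetic cortex and 40.4 ± 9.91 CPM in control cortex (1.65 ± 0.20, adjusted p = 0.00129). Usp2 averaged 8.05 ± 6.03 CPM in diabetic glomeruli and 1.52 ± 0.285 CPM in control glomeruli (2.41 ± 0.61, adjusted p = 0.0230), and it stood at 144 ± 20.2 CPM in diabetic cortex and 162 ± 22.5 CPM in control cortex. On counts it was 0.0076 times as high in control glomeruli as in control cortex (edgeR adjusted p = 7.5e-08). The part of tubule RNA in the Usp2 level of diabetic glomeruli was not tested. In glomeruli, the 2 higher output genes were no longer called without control sample 1, without control sample 3+4 or without diabetic sample 1+4, and 1 of them was lost without diabetic sample 2. Of 8 kidney transport genes known to follow the clock, 5 were called higher and 1 lower in diabetic glomeruli. Aqp2 and Slc12a3, called higher, are also among the distal nephron and collecting duct markers summed above. All 5 genes called higher were lower in control glomeruli than in control cortex on counts (edgeR, adjusted p under 0.05). The higher calls were 2 without control sample 1, control sample 3+4 or diabetic sample 1+4, 3 without control sample 2 and 4 without diabetic sample 3, and the lower call was lost without control sample 1, diabetic sample 1+4 or diabetic sample 2. Scnn1a, a subunit of the tubular sodium channel, was higher there by 4.56 ± 0.41 (edgeR adjusted p = 0.000776), beside the tubule marker sums given above, whose part was not tested. In diabetic cortex 1 of the 8 was called lower, the sodium exchanger Slc9a3 (-0.38 ± 0.09, edgeR adjusted p = 0.0144), and 2 were without control library 3 and 3 without control library 4.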

How the data were processed

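The members were given by name, and the members and lists were chosen with earlier results of these data known. RNA had been extracted with a Qiagen kit and made into SMARTER mRNA-Seq libraries, per the labels' protocols. The builds GRCm38 and mm10 are named in the submitters' processing notes. No aligner, counter, annotation or use of strand is given in the sources used here. For glomeruli the authors deposited raw counts per gene symbol. For cortex the deposited table holds, by Ensembl identifier, whole numbers that, from the values, are estimated counts already rounded (15 values above 0 had an FPKM of 0). FPKM values, which the authors deposited for both tissues, were used for levels per length and as an alternative. Of 24722 glomerular symbols 19796 matched GENCODE M21 directly and 325 through synonyms. Of 34264 cortex identifiers 31953 matched, and 19043 genes joined.

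Genes were tested with edgeR 4.0.16 in R 4.3.3 (filterByExpr with a count minimum of 10, TMM, robust glmQLFit, glmQLFTest, Benjamini-Hochberg over all genes tested, threshold 0.05). Each tissue was fitted alone, and the difference and the tissue contrast in 1 model of the 4 groups. Each SE of a log2 fold change was derived as its absolute value over the square root of the F statistic of the edgeR test. CPM are on TMM-scaled library sizes. Glomerular pairs closer than other pairs of their group by over 5 times in a chi-square test of counts were summed. Alternatives were library totals, DESeq2 1.42.0, no filter, each sample left out, separate libraries, the replicate block, diabetic glomerular sample 2 alone, and limma 3.58.1 on log2(FPKM + 1) or log2(FPKM + 0.1) with and without a minimum of 0.5 FPKM. A fold on that scale understates the change of low genes. The tests were tried on simulated counts. All members were named, with up to 4 called genes of each other list by smallest adjusted p, 3 genes most like Arntl and Dbp, and cell type lists by counts. Some genes that this rule names are not reported here.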

Additional observations from a re-analysis of the deposited data

Results flagged for a closer look

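The diabetic effect in glomeruli minus that in cortex was past the threshold for 3 members: Npas2 at 3.55 (3 of 3 diabetic glomerular samples above all controls), Per1 at -1.32 and Per3 at -0.60 on the log2 scale (edgeR, adjusted p = 0.00109, 0.00528 and 0.0428). Nr1d2 in diabetic cortex library 1, at 109.5 CPM, stood apart from the other 3 libraries of its group, with a gap to the nearest of 0.838 of the whole range (Dixon's test). This was 1 of 20 groups of 4 cortex libraries so tested, and chance flags about 1 in 20.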

How the results depend on the processing

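The number of members called in glomeruli was 3 in the reported fit, where 5717 of all 15238 genes tested were called. It was 6 with DESeq2 (2 higher, 4 lower) and 6 with the 8 libraries kept separate. Those settings also called more of all genes, 6680 of 15238 and 7786 of 15182. The fit of 8 libraries takes the near-identical libraries of each summed pair as separate samples, so its p-values count them as replicates. Leaving out each sample gave 2 to 7, with 7 (1 higher, 6 lower) without diabetic sample 2. Of all genes these fits called 3911 to 5237, and 4365 of 15658 without diabetic sample 2. In cortex it was 4, and 2 with library totals and 2 on each FPKM scale, with 2 to 4 when each library was left out. Of all genes the reported cortex fit called 3856 of 19228, and 2528 to 4715 were called with a library left out. For the difference of the diabetic effect it was 3, with 2 to 5 over the left-out samples. Of all genes 5785 of 16507 were called for the difference, and 4884 to 5826 over the left-out samples. The tissue contrast kept 7 or 8 calls throughout. The cause of these changes was not tested.

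With libraries left out in turn, signs changed only near 0: Arntl ran from -0.024 to 0.18 in glomeruli, from -0.15 to 0.14 in cortex and from -0.10 to 0.19 for the difference. Nr1d1 ran from -0.075 to 0.34 in cortex, and for the difference Nr1d2 ran from -0.21 to 0.031 and Ciart from -0.20 to 0.29. Arntl also reversed to -0.0002 in glomeruli and -0.0032 for the difference with no filter on low counts, to -0.0081 for the difference with DESeq2, and to -0.27 in glomeruli and -0.29 for the difference with sample 2 alone. With sample 2 alone the difference for Per2 was 0.24 and for Nr1d2 0.24, and with library totals that of Nr1d2 was 0.10.

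Library totals moved the median of all genes in glomeruli to 0.197, against 0.01 with TMM, and the share of called genes that were higher to 72.5%, against 51.6%. Among the members Ciart was then called higher (0.88, adjusted p = 0.0355) and Nr1d2 was not called (-0.29, adjusted p = 0.160). For the difference the median moved to 0.19, against 0.039.

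Libraries with the same number did not vary together. Correlations of their deviations from the group mean, diabetic with control, were -0.08 to 0.11 in glomeruli and -0.22 to 0.04 in cortex. Between glomeruli and cortex they were -0.12 to 0.03 in control and -0.05 to 0.10 in diabetic mice. The reported fits therefore used no pairing by number. Low correlations between different tissues cannot decide whether the same mice gave both tissues. With the replicate block 8 members were called in glomeruli (separate libraries, 2 higher and 6 lower), 2 in cortex and 5 for the difference. Of all genes the block called 6992 of 15182, 2375 of 19228 and 5879 of 16150 in the same order. In glomeruli and for the difference the block also took the near-identical libraries as separate samples. Npas2 in control glomeruli rested on 4 to 20 reads per library.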
